A study of Homo sapiens with 20 samples.

Results

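Transcript levels of 9 antioxidant genes, HMOX1, NQO1, GCLM, GCLC, SRXN1, TXNRD1, SLC7A11, OSGIN1 and ME1, were followed through nickel exposure of BEAS-2B, an immortalised human bronchial epithelial line. The genes are a fixed set of established NRF2 targets, matched by symbol in the deposited count tables, and all 9 were found among 25411 genes. RNA was sequenced in 20 libraries, 6 from unexposed cells and 14 from cells with a history of nickel chloride. Control_3D (n = 4) and Ni_3D (n = 2) are unexposed and nickel-treated cells at 3 days, and Ni_3D+14D (n = 2) carries the label of the short exposure plus 14 days. Control_6W (n = 2) and Ni_6W (n = 2) stand for a 6-week exposure, and Ni_6W+2W (n = 2) for the same exposure followed by washing and 2 weeks without nickel. Ni_clone (n = 6) holds 1 library from each of 6 populations expanded from single colonies of 6-week exposed cells, for which the labels give a concentration of 100 mM. The concentration in the other nickel groups is not given in the sources used here. Nothing in the labels says that replicates came from separate cultures, so p-values measure the spread between these libraries, which may be technical.

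NRF2, encoded by NFE2L2, is a transcription factor that KEAP1 binds in the cytoplasm and passes to ubiquitin-dependent degradation. Electrophiles and oxidants modify KEAP1, and NRF2 then accumulates, pairs with a small MAF protein and binds antioxidant response elements near genes of detoxification and redox balance. BACH1 is a haem-sensitive repressor of some of the same elements, above all at HMOX1.

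Sequence matches to the element are shown first, because the genes are defined by this factor, although the window searched held them in only some promoters. Promoters of 250 bases before to 50 after the start were taken from RefSeq (GRCh38.p14), where 7 members matched by symbol with 8 promoters, 2 of them of TXNRD1. HMOX1 and SLC7A11 had no entry. The core letters TGACNNNGC, searched on both strands, were in 4 of the 8 promoters, belonging to 3 members, and in 13.3% of 35116 RefSeq promoters of the same length. One match per promoter is printed on the strand of the gene with 20 bases to each side, and capitals mark the 9 core letters, which read as the reverse complement in GCLM and in the second TXNRD1 promoter.
GCLM, chr1:93909436-93909484, minus strand: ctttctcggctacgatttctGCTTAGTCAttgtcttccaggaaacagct
TXNRD1, chr12:104215660-104215708, plus strand: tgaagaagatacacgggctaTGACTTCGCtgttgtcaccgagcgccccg
TXNRD1, second promoter, chr12:104286910-104286958, plus strand: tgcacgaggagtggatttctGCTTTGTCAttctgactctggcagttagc
ME1, chr6:83431160-83431208, minus strand: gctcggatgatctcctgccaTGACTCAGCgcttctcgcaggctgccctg
The core began at base -34 from the start in GCLM, at -99 and -102 in the TXNRD1 promoters and at -137 in ME1. In ME1 its first 7 letters also spell an AP-1 site, TGANTCA, which overlaps it. TGANTCA was found in 2 of the 8 promoters, those of OSGIN1 and ME1, and in 7.71% of all promoters. Of the hypoxia response core letters, ACGTG was in 0 of 8 (21.4% of all promoters) and GCGTG in 7 of 8 (36.5%). In OSGIN1 the GCGTG letters overlap the AP-1 letters. These matches describe letters in a short window.

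Libraries held 8609243 to 88848786 reads, and the members had between 19 reads (OSGIN1) and 90373 reads (TXNRD1) in a library. Levels are given as CPM, counts scaled to a common library size with trimmed-mean factors over all libraries. CA9, a hypoxia gene that nickel is known to induce, rose at 3 days, from 0.696 to 13.3 CPM in Control_3D to 623.6 and 365.6 CPM in Ni_3D (log2 fold change 6.26 ± 1.0, adjusted p = 0.0126, edgeR). Of epithelial markers KRT8 (187.3 to 830.9 CPM) and KRT18 (134.5 to 385.9 CPM) were present in every library, while KRT5 (at most 4.02 CPM) and TP63 (at most 0.213 CPM) were near 0, and VIM, a mesenchymal marker, ran from 1532.5 to 4240.6 CPM. Among other mesenchymal markers, FN1 was at 3172.5 and 3110.3 CPM in Control_3D replicates 1 and 2, at 102.7 to 173.8 CPM in the other 4 controls and at 212.8 to 2081.9 CPM in the nickel libraries. ZEB1, a repressor of epithelial genes, was at 11.9 and 12.4 CPM, at 0.612 to 1.76 CPM and at 7.75 to 18.2 CPM in the same order. Control_3D replicate 1 and Ni_3D replicate 1 held ESR1 (3.51 and 10.7 CPM) and TFF1 reads, luminal epithelial genes with no ESR1 read in the other 18 libraries; 6 such markers summed to 50.0 and 101.6 CPM there and to at most 4.24 CPM elsewhere. Endothelial markers summed to at most 3.36 CPM. Of the immune markers CD14 ran from 5.63 to 34.2 CPM, while PTPRC, carried by white blood cells, was at most 0.307 CPM. In bulk RNA a change in the mixture of cells and a change per cell cannot be told apart.

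Control_6W replicate 2 stood apart in these genes. It had the highest level of all 20 libraries for HMOX1, GCLM, GCLC, SRXN1 and ME1, and for MAFF, a small MAF partner of NRF2. Its level was at least 1.5 times that of Control_6W replicate 1 for 6 of the 9 members, beside 12.0% of the 10945 genes whose mean reached 5 CPM. Replicates of other groups differed too. The ratio was at least 1.5 for 4 of 9 members in Ni_3D, replicate 2 over 1, beside 8.83% of 10956 genes. It was so for 4 of 9 in Ni_6W, replicate 1 over 2, beside 19.8%. Because Control_6W replicate 2 is 1 of only 2 controls for every 6-week comparison, the members' log2 fold changes in those comparisons are also given without it. A fit that leaves out 1 of 2 libraries keeps 1 library in that group, which is assumed to vary like the other groups of the fit (in the clone fits, like the 6 clones).

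**Figure D1:**
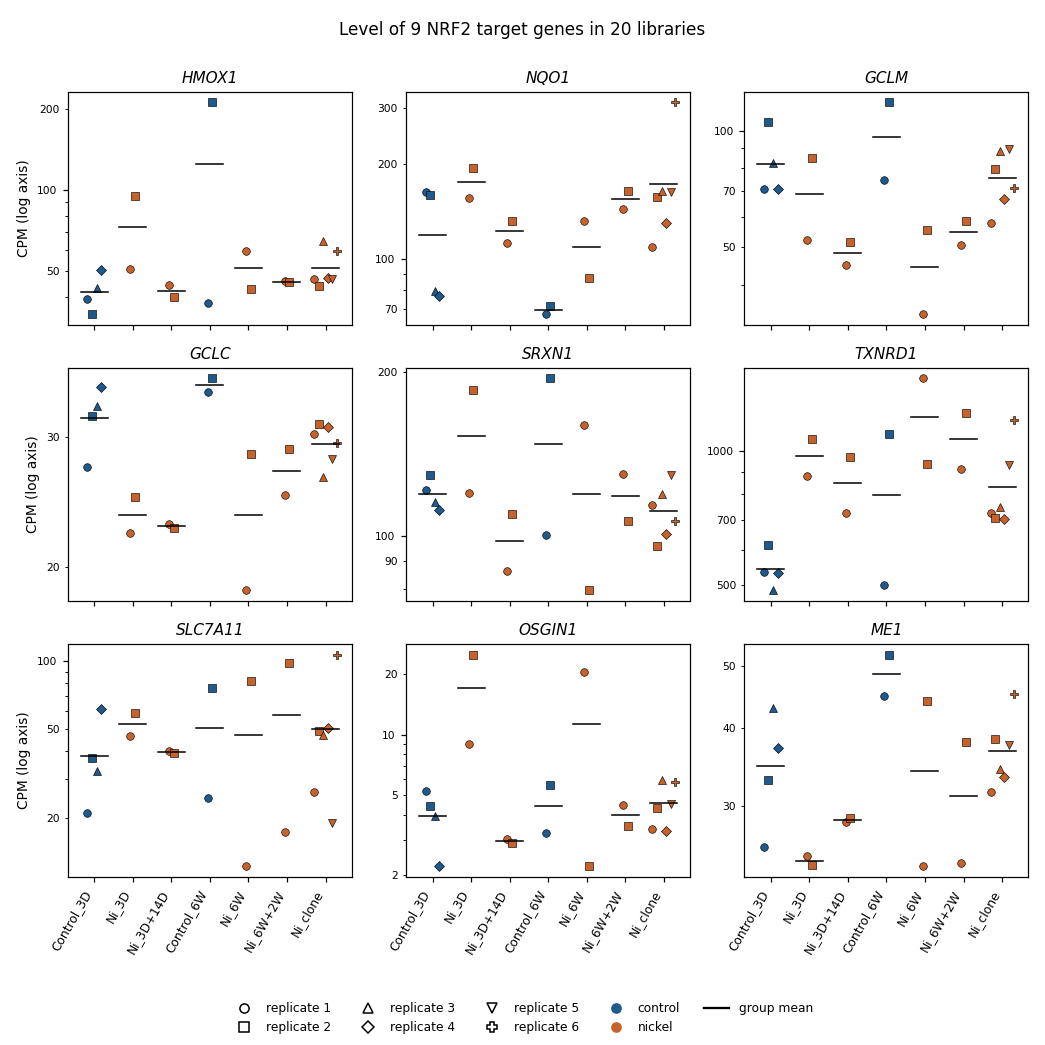
CPM of the 9 genes (log axis, 1 panel per gene) in each of 20 libraries by group, with control libraries in blue, nickel libraries in orange, marker shape for the replicate number and a bar for the group mean. Control_6W replicate 2 stands at 212.4 CPM for HMOX1 beside 38.1 CPM in replicate 1. For TXNRD1 it is at 1093.6 CPM, within the range of the 14 nickel libraries (704.2 to 1462.8 CPM). These lie above the other 5 controls (613.2 CPM or less), a set chosen after the levels were seen.

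Per length, on the authors' RPKM scale, TXNRD1 was the most abundant of the 9 transcripts, with a mean of 182.0 RPKM over the 20 libraries. NQO1 (47.4), SRXN1 (39.2) and HMOX1 (31.3) followed, then GCLM (20), ME1 (8.65), GCLC (6.55), SLC7A11 (4.32) and OSGIN1 (2.71). TXNRD1 was above NQO1 in 20 of 20 libraries, GCLM above ME1 and ME1 above GCLC in 20 of 20. The order of neighbours was less uniform for NQO1 over SRXN1 (15 of 20) and SLC7A11 over OSGIN1 (15 of 20).

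Across the 5 comparisons of a nickel group with its controls, none of the 9 members passed an adjusted p of 0.05 by edgeR's quasi-likelihood test. The background differed between comparisons. In Ni_3D 4.33% of 14927 genes passed. There 2 members were under 0.05 before adjustment, beside 24.3% of all genes, and 2 were called by DESeq2, beside 12.6%. In Ni_3D+14D 0.0% of all genes passed, with 3 members under 0.05 before adjustment (4.11% of all genes) and 0 called by DESeq2 (0.107%). In Ni_6W 2.47% passed, with 3 members under the unadjusted limit (26.6%) and 1 called by DESeq2 (13.9%), and in Ni_6W+2W 0.0% passed, with 3 (13.1%) and 0 members (2.2%). Among clones against Control_6W 5.26% of 14172 genes passed, with 3 members under the unadjusted limit (25.2%) and 2 called by DESeq2 (13.9%). The median log2 fold change of the members was 0.50 in Ni_3D, -0.28 in Ni_3D+14D, -0.30 in Ni_6W, -0.31 in Ni_6W+2W and -0.24 in the clones, beside medians of all genes between -0.00 and 0.03. The last 3 share Control_6W and the first 2 share Control_3D.

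**Figure D2:**
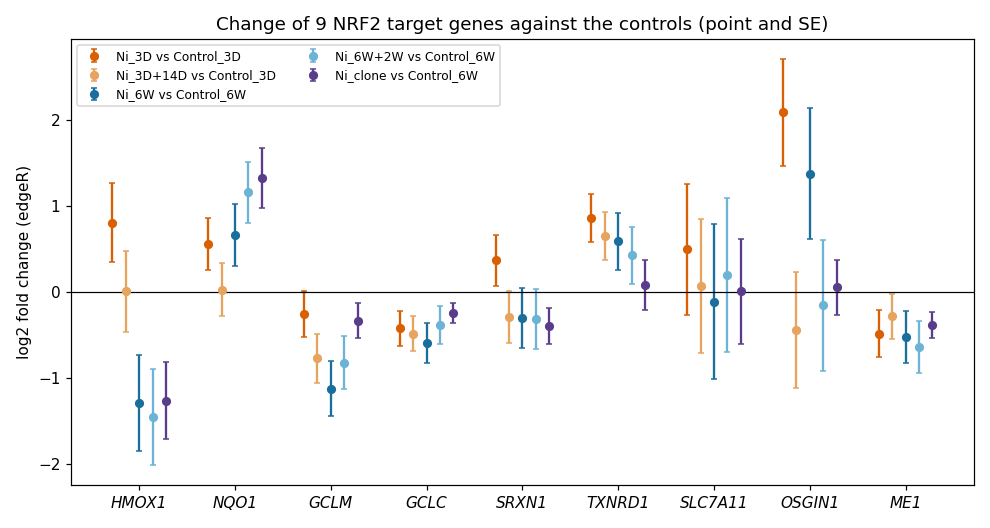
Log2 fold change with its SE (edgeR) of the 9 genes in each of 5 comparisons with controls, zero marked by a line. OSGIN1 and TXNRD1 have the largest positive values in Ni_3D (2.09 and 0.86), and HMOX1 the most negative values in the 3 comparisons with Control_6W (-1.29, -1.45 and -1.26).

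Haem breakdown is represented by HMOX1, haem oxygenase 1, which releases iron, carbon monoxide and biliverdin from haem. HMOX1 (22:35777061-35790207, hg19) stood at 39.3, 34.5, 43.0 and 50.5 CPM in Control_3D, at 50.6 and 94.7 CPM in Ni_3D and at 44.1 and 40.0 CPM in Ni_3D+14D. The lower Ni_3D library was barely above the highest control, and the log2 fold change of 0.81 ± 0.46 (SE) was not called (adjusted p = 0.298, edgeR). Without Ni_3D replicate 2 it was 0.27 (adjusted p = 0.835, edgeR). The 6-week controls held 38.1 and 212.4 CPM, a 5.57-fold difference within the group. Ni_6W held 59.2 and 42.9 CPM, Ni_6W+2W 45.9 and 45.3 CPM, and the clones 43.9 CPM at the lowest, 46.8 at the median and 64.6 at the highest.

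All 10 of those nickel libraries lay between the 2 controls. HMOX1 was lower than the control mean by 1.29 ± 0.56 on the log2 scale in Ni_6W (-1.29, adjusted p = 0.164), by -1.45 ± 0.56 in Ni_6W+2W (adjusted p = 0.308) and by -1.26 ± 0.45 in the clones (adjusted p = 0.124, all edgeR). Without Control_6W replicate 2 the sign turned in all 3, to 0.41, 0.26 and 0.43, with adjusted p of 0.578, 0.97 and 0.451. Without Control_6W replicate 1, which leaves as the only control the library highest in HMOX1 of all 20, the values were -2.06, -2.21 and -2.03, with adjusted p of 0.0169, 0.0231 and 0.00156 (edgeR), in fits that called 409, 117 and 1504 genes in all. One control library thus sets the sign of the 6-week HMOX1 difference. Between the control groups HMOX1 differed by 1.57 ± 0.46 (Control_6W over Control_3D, adjusted p = 0.577, edgeR), and by -0.13 without Control_6W replicate 2. The 6-week response minus the 3-day response was -2.10 ± 0.72 (adjusted p = 0.342, edgeR), -2.86 without Control_6W replicate 1 (adjusted p = 0.0173) and -0.39 without replicate 2 (adjusted p = 0.871).

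**Figure D3:**
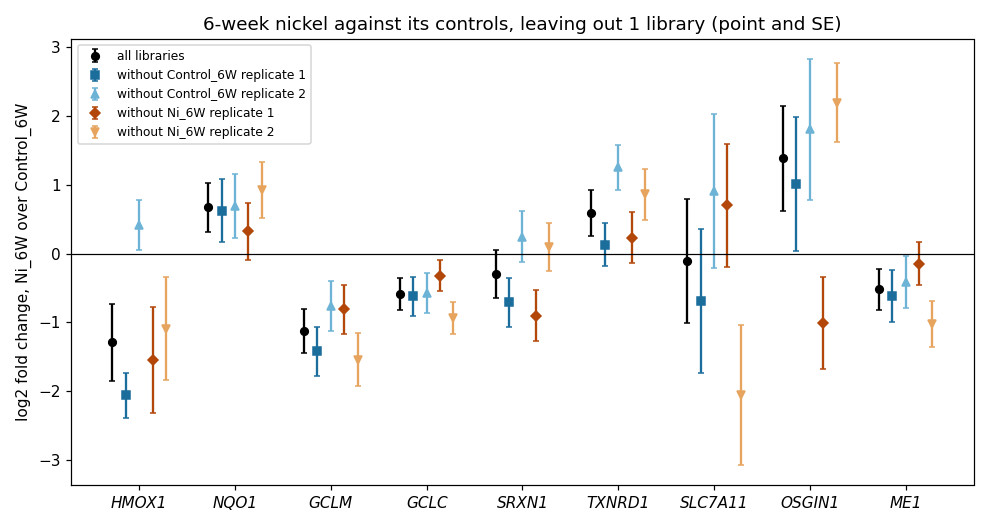
Log2 fold change with its SE (edgeR) of Ni_6W over Control_6W for the 9 genes, from all libraries (black) and after leaving out each of the 4 libraries of the comparison in turn. HMOX1 goes from -1.29 to 0.41 without Control_6W replicate 2, and OSGIN1 from 1.38 to -1.01 without Ni_6W replicate 1, while GCLM stays between -1.54 and -0.76.

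Quinone reduction is represented by NQO1, a cytosolic reductase that spares quinones the radical intermediate. NQO1 (16:69743305-69760571, hg19) was at 163.3, 159.2, 79.3 and 76.8 CPM in Control_3D, at 156.2 and 193.2 CPM in Ni_3D and at 113.0 and 132.3 CPM in Ni_3D+14D. The controls fell into an upper pair, replicates 1 and 2, and a lower pair, replicates 3 and 4, and Ni_3D overlapped the upper pair. The 6-week controls, at 67.3 and 71.4 CPM, were at the level of the lower pair. Ni_6W held 132.3 and 87.2 CPM, Ni_6W+2W 144.4 and 164.6 CPM, and the clones from 109.6 through a median of 160.0 to 311.9 CPM. All 14 nickel libraries were above the 4 lower controls, a set named from these same NQO1 values. Only 4 of the 14 were above the highest control. The 4 controls low in NQO1 were the 4 low in ZEB1 and FN1, and the part of that split in the NQO1 differences was not tested. Without the 2 libraries that held ESR1 reads, the Ni_3D log2 fold changes were 0.87 for NQO1, 1.15 for HMOX1 and 0.97 for TXNRD1 (adjusted p of 0.246, 0.343 and 0.218, edgeR).

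The NQO1 comparison at 3 days therefore turned on which controls were used. With all 4 the log2 fold change was 0.56 ± 0.30 (adjusted p = 0.278, edgeR). Against replicates 3 and 4 alone it was 1.16 and passed the test (adjusted p = 0.0154), and against replicates 1 and 2 alone it was 0.11 (adjusted p = 0.828). NQO1 was 0.67 ± 0.36 higher in Ni_6W (adjusted p = 0.256), 1.16 ± 0.36 in Ni_6W+2W (adjusted p = 0.261) and 1.33 ± 0.35 in the clones (adjusted p = 0.0583, all edgeR), without overlap of libraries in any of the 3. In the clones the call was made without clone 1 (1.43, adjusted p = 0.0397) and without clone 6 (1.08, adjusted p = 0.0239, edgeR). Between the control groups NQO1 differed by -0.81 ± 0.32 (Control_6W over Control_3D, adjusted p = 0.58, edgeR), and by -1.23 with Control_3D replicates 1 and 2 alone, which passed the test (adjusted p = 0.023).

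Glutathione synthesis depends on GCLC and GCLM, the catalytic and modifier subunits of glutamate-cysteine ligase, and on cystine brought in by SLC7A11, the light chain of the xc- antiporter. GCLC (6:53362141-53409927, hg19) was at 27.3, 32.0, 33.0 and 35.1 CPM in Control_3D, at 22.2 and 24.9 CPM in Ni_3D and at 22.9 and 22.6 CPM in Ni_3D+14D. All 4 of these nickel libraries were below every control. At 6 weeks the controls held 34.5 and 36.0 CPM, Ni_6W 18.6 and 28.4 CPM, Ni_6W+2W 25 and 28.9 CPM, and the clones 26.5 to 31.2 CPM with a median of 29.9. Again no nickel library reached a control. The log2 fold change of GCLC was -0.42 ± 0.20 in Ni_3D (adjusted p = 0.21), -0.48 ± 0.20 in Ni_3D+14D (adjusted p = 0.979), -0.59 ± 0.23 in Ni_6W (adjusted p = 0.123), -0.38 ± 0.22 in Ni_6W+2W (adjusted p = 0.485) and -0.24 ± 0.12 in the clones (adjusted p = 0.238, all edgeR). GCLC was the member with the smallest range over the 20 libraries, 1.93-fold.

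GCLM (1:94352591-94375012, hg19) was at 70.5, 105.1, 82.4 and 70.8 CPM in Control_3D, at 52.3 and 85.0 CPM in Ni_3D and at 45 and 51.6 CPM in Ni_3D+14D. The 6-week controls held 74.6 and 118.4 CPM, Ni_6W 33.6 and 55.5 CPM and Ni_6W+2W 50.8 and 58.5 CPM. Ni_3D overlapped its controls, while Ni_3D+14D, Ni_6W and Ni_6W+2W lay below theirs. The clones, at 57.8 to 89.8 CPM with a median of 75.4, overlapped the lower 6-week control. GCLM had a log2 fold change of -1.12 ± 0.32 in Ni_6W (adjusted p = 0.0685), -0.77 ± 0.28 in Ni_3D+14D (adjusted p = 0.979) and -0.82 ± 0.31 in Ni_6W+2W (adjusted p = 0.305, all edgeR). The Ni_6W difference was -0.76 without Control_6W replicate 2 and -1.54 without Ni_6W replicate 2, in fits that keep 1 library in the shortened group.

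SLC7A11 (4:139085249-139163503, hg19) differed several-fold between replicates in most groups with a 6-week exposure. It was at 21.0, 37.0, 32.4 and 61.2 CPM in Control_3D, at 46.5 and 58.7 CPM in Ni_3D and at 39.8 and 39.2 CPM in Ni_3D+14D. It differed 3.07-fold between the 6-week controls (24.7 and 75.7 CPM), 6.73-fold in Ni_6W (12.2 and 82.1 CPM) and 5.67-fold in Ni_6W+2W (17.3 and 98.2 CPM), with replicate 2 the higher each time. The clones ran from 19.1 through a median of 48.0 to 107.2 CPM. Nickel and control libraries overlapped at both exposures. The log2 fold changes of SLC7A11 ran from -0.11 to 0.50 in the 5 comparisons with controls, each smaller than its SE of 0.61 to 0.9 (adjusted p of 0.724 to 0.995, edgeR).

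Thioredoxin and peroxiredoxin recycling are represented by TXNRD1, the cytosolic thioredoxin reductase, and SRXN1, sulfiredoxin, which repairs overoxidised peroxiredoxins. TXNRD1 (12:104680461-104744085, hg19) was at 534.9, 613.2, 485.6 and 532.2 CPM in Control_3D, at 882.0 and 1066.3 CPM in Ni_3D and at 727.5 and 969.3 CPM in Ni_3D+14D. Both exposed groups were above all 4 controls. The 6-week controls held 498.8 and 1093.6 CPM, Ni_6W 1462.8 and 936.0 CPM, Ni_6W+2W 912.6 and 1223.7 CPM, and the clones 704.2 to 1177.6 CPM with a median of 736.3. With Control_6W replicate 2 set aside, each of the 14 nickel libraries was above each other control. That library was set aside after its levels were seen, and it ranked 4 among the 20 libraries in TXNRD1. How many of all genes split this way was not counted. The log2 fold change of TXNRD1 was 0.86 ± 0.28 in Ni_3D (adjusted p = 0.0858, edgeR), and the value was called by DESeq2 (0.85, adjusted p = 0.0385). It was 0.65 ± 0.28 in Ni_3D+14D (adjusted p = 0.979), 0.59 ± 0.33 in Ni_6W (adjusted p = 0.268), 0.43 ± 0.33 in Ni_6W+2W (adjusted p = 0.612) and 0.08 ± 0.29 in the clones (adjusted p = 0.886, all edgeR). The Ni_6W value was 1.25 without Control_6W replicate 2 and 0.13 without replicate 1, and neither passed the test (adjusted p = 0.212 and 0.849). In the clones it was 0.74 without replicate 2 and -0.37 without replicate 1 (adjusted p = 0.32 and 0.407).

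SRXN1 (20:627269-634014, hg19) was nearly level in the 3-day controls, at 121.6, 129.6, 115.8 and 111.8 CPM. Ni_3D held 120.1 and 185.9 CPM and Ni_3D+14D 86.4 and 109.7 CPM. The first overlapped the controls and the second was below them. The 6-week controls held 100.6 and 195.0 CPM, Ni_6W 159.9 and 79.6 CPM, Ni_6W+2W 130.0 and 106.7 CPM, and the clones 95.8 to 129.8 CPM with a median of 110.6. High values therefore came from single replicates: replicate 2 in Ni_3D and Control_6W and replicate 1 in Ni_6W. In the clones the log2 fold change was -0.39 ± 0.21 (adjusted p = 0.278), and it was -0.79 without Control_6W replicate 1 (adjusted p = 0.0204, edgeR), against the 1 library highest in SRXN1 of all 20, and 0.15 without replicate 2.

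OSGIN1, an oxidative stress induced growth inhibitor, was the least abundant member per length and the most variable, with an 11.3-fold range over the 20 libraries. OSGIN1 (16:83986828-83999937, hg19) was at 5.24, 4.41, 3.94 and 2.23 CPM in Control_3D, at 8.98 and 25 CPM in Ni_3D and at 3.02 and 2.90 CPM in Ni_3D+14D. Both Ni_3D libraries were above every control. The 6-week controls held 3.23 and 5.63 CPM, Ni_6W 20.4 and 2.21 CPM, Ni_6W+2W 4.44 and 3.50 CPM, and the clones 3.33 to 5.95 CPM with a median of 4.42. In Ni_6W the libraries differed 9.22-fold, 1 of them above and 1 of them below both controls.

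The log2 fold change of OSGIN1 was 2.09 ± 0.62 in Ni_3D (adjusted p = 0.0694, edgeR), and it was called by DESeq2 (adjusted p = 0.0147). It was 1.16 without Ni_3D replicate 2 (adjusted p = 0.427, edgeR) and 2.80 without the 2 libraries that held ESR1 reads (adjusted p = 0.113, edgeR). In Ni_6W it was 1.38 ± 0.76 (adjusted p = 0.269, edgeR). It was 2.19 without Ni_6W replicate 2 and -1.01 without Ni_6W replicate 1, in fits that keep 1 Ni_6W library. Ni_3D+14D was lower than Ni_3D by -2.53 ± 0.79 (adjusted p = 0.214, edgeR), a difference that DESeq2 called (adjusted p = 0.0251).

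ME1, cytosolic malic enzyme, supplies NADPH to the glutathione and thioredoxin systems. ME1 (6:83920111-84140938, hg19) was at 25.9, 33.0, 42.9 and 37.1 CPM in Control_3D, at 25 and 24.2 CPM in Ni_3D and at 28.3 and 28.8 CPM in Ni_3D+14D. The 6-week controls held 44.9 and 52.2 CPM, Ni_6W 24.1 and 44.1 CPM, Ni_6W+2W 24.4 and 37.9 CPM, and the clones 31.6 to 45.2 CPM with a median of 36.0. Ni_3D, Ni_6W and Ni_6W+2W were below their controls, with 1 library of each of the first 2 within 1 CPM of a control. The log2 fold change of ME1 was -0.48 ± 0.27 in Ni_3D (adjusted p = 0.285), -0.52 ± 0.30 in Ni_6W (adjusted p = 0.294), -0.64 ± 0.30 in Ni_6W+2W (adjusted p = 0.392) and -0.38 ± 0.15 in the clones (adjusted p = 0.139, all edgeR).

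Counted by overlap of libraries, 3 members were above and 2 below all controls in Ni_3D, beside 19.8% and 18.8% of all genes. Those above were HMOX1, TXNRD1 and OSGIN1. The counts were 1 above and 3 below in Ni_3D+14D (11.2% and 10.8% of all genes), 1 and 3 in Ni_6W (24.5% and 22.5%), 1 and 3 in Ni_6W+2W (23.3% and 20.8%) and 1 and 1 in the clones (11.8% and 12.5%). The gene above was TXNRD1 in Ni_3D+14D and NQO1 in the 3 comparisons with Control_6W. GCLC was among the genes below in all 5.

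Without Control_6W replicate 2 no member passed the test in Ni_6W, Ni_6W+2W or the clones, with adjusted p from 0.212 to 0.991 (edgeR). Over all genes 0, 0 and 6 were called in those fits, so a missing call there says little about a member. In that order of groups the log2 fold change was 0.69, 1.19 and 1.36 for NQO1 and 1.25, 1.09 and 0.74 for TXNRD1. It was -0.57, -0.36 and -0.23 for GCLC, -0.41, -0.53 and -0.29 for ME1, and -0.76, -0.45 and 0.02 for GCLM. SLC7A11 had 0.91, 1.22 and 1.02, OSGIN1 1.8, 0.3 and 0.5, and SRXN1 0.24, 0.23 and 0.15. NQO1, TXNRD1, GCLC and ME1 had the same sign as with both controls in all 3 comparisons, and HMOX1 and SRXN1 turned from negative to positive in all 3. The sign also turned for SLC7A11 in Ni_6W, OSGIN1 in Ni_6W+2W and GCLM in the clones.

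The steps after exposure gave no called member either. Ni_3D+14D against Ni_3D had 0 of 9 members called where 0.255% of all genes were. Before adjustment 1 member was under 0.05 (12.6% of all genes), and 1 was called by DESeq2 (2.96%). There, 6 members were below and 1 above without overlap, beside 26.9% and 27.4% of all genes: HMOX1, NQO1, GCLM, SRXN1, SLC7A11 and OSGIN1 were below Ni_3D, and ME1 above it. Ni_6W+2W against Ni_6W had 0 members called (0.0% of all genes), with 0 under 0.05 before adjustment (6.59%) and 0 by DESeq2 (0.0469%). Clones against Ni_6W+2W had 0 called (0.028% of 14273 genes) and 0 by DESeq2 (0.427%). There 1 was under 0.05 before adjustment (6.61%), GCLM at 0.46 ± 0.18 (adjusted p = 0.717, edgeR). Control_6W against Control_3D had 0 called (0.0% of all genes) and 0 by DESeq2 (0.328%). There 2 were under 0.05 before adjustment (8.31%), HMOX1 and NQO1. The 6-week minus 3-day response had 0 called (0.0%), with 1 member, HMOX1, under the unadjusted limit (10.9%). The difference of the 2 responses after exposure also had 0 (0.0%). There NQO1 was under that limit (1.13 ± 0.48, adjusted p = 1.0, edgeR), beside 1.94% of all genes. DESeq2 called 0 members in both responses (1.27% and 0.0134% of all genes).

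The regulators were read in the same way. NFE2L2, which encodes NRF2 itself, stood at 93.4, 102.8, 65.3 and 60.9 CPM in Control_3D, with the same upper and lower pair as NQO1. It was at 63.6 and 65.9 CPM in Ni_3D, 80.8 and 90.8 CPM in Ni_3D+14D, 65.2 and 86.8 CPM in Control_6W, 57.6 and 100.9 CPM in Ni_6W and 97.4 and 99.2 CPM in Ni_6W+2W. The clones held 90.4 to 119.6 CPM with a median of 107.0, all above both 6-week controls, at a log2 fold change of 0.50 ± 0.14 (adjusted p = 0.0695, edgeR; 0.0213 by DESeq2), and 0.70 without Control_6W replicate 2 (adjusted p = 0.162, edgeR).

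KEAP1, the NRF2 adaptor for degradation, was the only gene of NFE2L2, KEAP1, BACH1 and MAFF that edgeR called, and it fell. It was at 167.8 and 159.8 CPM in Control_6W and at 76.8 and 91.2 CPM in Ni_6W, a log2 fold change of -0.97 ± 0.23 (adjusted p = 0.0497, edgeR). The call was lost without Control_6W replicate 1 (adjusted p = 0.0947), Control_6W replicate 2 (0.212) or Ni_6W replicate 1 (0.255), at log2 fold changes of -0.93, -1.01 and -0.85, and with the replicate number as a block (adjusted p = 0.0586, edgeR). KEAP1 was at 141.0 and 108.1 CPM in Ni_6W+2W and at 101.6 to 143.1 CPM in the clones, between the Ni_6W and control levels. At 3 days it was at 152.9 to 175.2 CPM in Control_3D and at 137.1 and 226.9 CPM in Ni_3D.

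**Figure D4:**
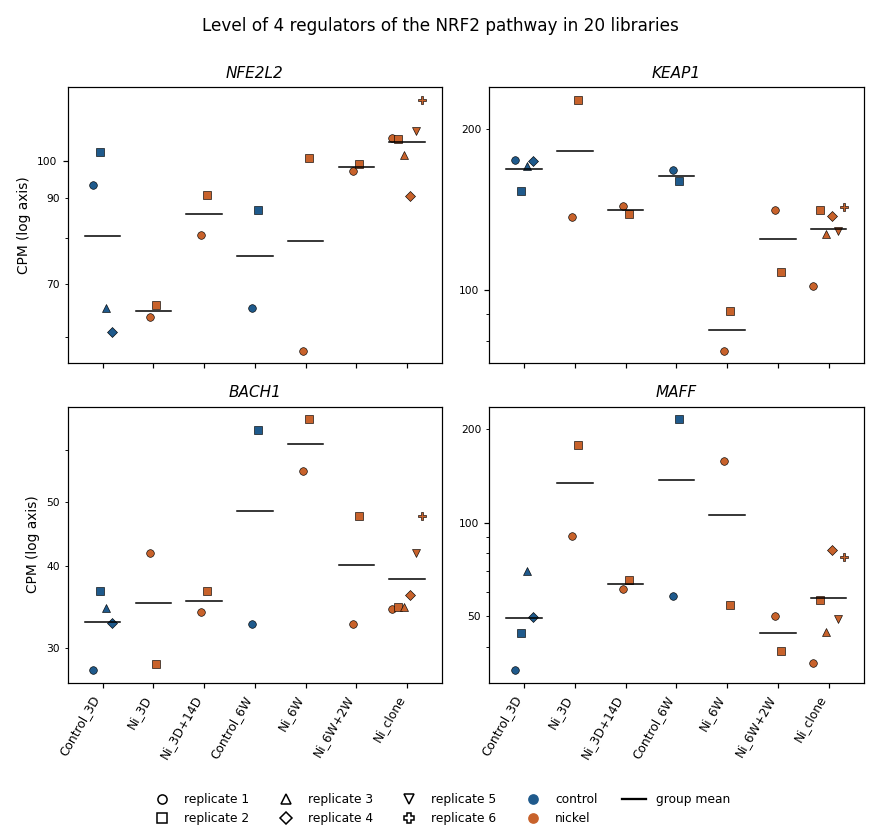
CPM (log axis) of NFE2L2, KEAP1, BACH1 and MAFF in each of 20 libraries by group, with colours, marker shapes and mean bars by group as labelled. KEAP1 is lowest in Ni_6W (76.8 and 91.2 CPM), and MAFF is highest in Control_6W replicate 2 (215.2 CPM), Ni_3D replicate 2 (177.9 CPM) and Ni_6W replicate 1 (157.7 CPM).

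BACH1 was at 27.8, 36.6, 34.5 and 32.8 CPM in Control_3D and at 41.8 and 28.4 CPM in Ni_3D. It was at 32.6 and 64.4 CPM in Control_6W and at 55.8 and 66.8 CPM in Ni_6W, so the higher 6-week control was again replicate 2. MAFF was at 33.6, 44.3, 70.0 and 49.6 CPM in Control_3D, at 90.7 and 177.9 CPM in Ni_3D, at 58.2 and 215.2 CPM in Control_6W and at 157.7 and 54.2 CPM in Ni_6W. The 3 libraries highest in MAFF were also the 3 highest in SRXN1, and 2 of them, Ni_3D replicate 2 and Ni_6W replicate 1, were the 2 highest in OSGIN1. MAFF had a log2 fold change of 1.46 ± 0.49 in Ni_3D (adjusted p = 0.0969, edgeR; 0.028 by DESeq2) and of 0.87 without Ni_3D replicate 2 (adjusted p = 0.459, edgeR).

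Among 14 regulators of the pathway, 1 rose in Ni_3D and 0 fell, beside 2.83% and 1.51% of all genes. That was SQSTM1, an autophagy receptor that binds KEAP1, at 1139.3 and 2298.4 CPM beside 713.2 to 954.8 CPM in Control_3D (1.02 ± 0.27, adjusted p = 0.0492, edgeR). Without Ni_3D replicate 2 it was 0.41 (adjusted p = 0.443), and the call was lost in 5 of 6 fits that left out 1 library. KEAP1 was the 1 regulator that fell in Ni_6W, where 0 rose, beside 1.21% and 1.25% of all genes. In Ni_3D and Ni_6W 2 and 3 of the 14 were under 0.05 before adjustment (24.3% and 26.6% of all genes). DESeq2 called 2 in each (12.6% and 13.9%). In the other 3 comparisons with controls edgeR called 0 of 14. There 1, 1 and 3 were under 0.05 before adjustment in Ni_3D+14D, Ni_6W+2W and the clones, beside 4.11%, 13.1% and 25.2% of all genes. DESeq2 called 0, 0 and 2 there, beside 0.107%, 2.2% and 13.9% of all genes. The 2 were NFE2L2, higher, and MAFF, lower (-1.24, adjusted p = 0.0287, DESeq2). By edgeR MAFF had log2 fold changes of -1.62 ± 0.60 in Ni_6W+2W (adjusted p = 0.295) and -1.23 ± 0.43 in the clones (adjusted p = 0.12). Without Control_6W replicate 2 these were -0.40 and -0.01. MAFF was at 50.0 and 38.6 CPM in Ni_6W+2W and at 35.4 to 81.9 CPM in the clones.

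Of 31 further NRF2 targets 26 were tested, and 2 rose in Ni_3D with 0 falling, beside 2.83% and 1.51% of all genes. There 8 of the 26 had an unadjusted p under 0.05 (24.3% of all genes), and DESeq2 called 5 (12.6%). ABCC3, a conjugate exporter, was at 76.5 and 30.7 CPM beside 1.24 to 6.94 CPM in Control_3D (3.48 ± 0.78, adjusted p = 0.0348). TRIM16L, a TRIM16-like gene, was at 17.5 and 22.3 CPM beside 7.27 to 8.46 CPM (1.35 ± 0.31, adjusted p = 0.0344, both edgeR). Leaving out 1 library ended the ABCC3 call in 5 of 6 fits and the TRIM16L call in 6 of 6, with log2 fold changes of 2.66 to 3.97 and 1.15 to 1.5. By edgeR none of the 26 was called in the other 4 comparisons with controls, where 4, 11, 6 and 8 had an unadjusted p under 0.05 in Ni_3D+14D, Ni_6W, Ni_6W+2W and the clones and 0, 6, 0 and 4 were called by DESeq2. The shares of all genes, in the same order, were 4.11%, 26.6%, 13.1% and 25.2% under the unadjusted limit and 0.107%, 13.9%, 2.2% and 13.9% by DESeq2. The median of the 26 was 0.22 in Ni_3D, 0.04 in Ni_3D+14D, 0.46 in Ni_6W, 0.12 in Ni_6W+2W and 0.07 in the clones.

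Of other glutathione and thioredoxin enzymes, 30 were tested in the non-clone fit and 29 with the clones. PRDX3, the mitochondrial peroxiredoxin, fell in Ni_3D (-0.69 ± 0.17, adjusted p = 0.0409, edgeR), at 70.3 and 78.6 CPM beside 106.0 to 140.5 CPM. In that comparison 0 rose, beside 2.83% of all genes higher and 1.51% lower. There 14 of the 30 had an unadjusted p under 0.05 (24.3% of all genes), and DESeq2 called 5 (12.6%). In Ni_6W 6 were under that limit (26.6%) and DESeq2 called 4 (13.9%), beside 1.21% of all genes called lower by edgeR. In the clones 6 of 29 were under it (25.2%), and DESeq2 called 4 (13.9%). CHAC2, which degrades glutathione, fell in Ni_6W (-1.67 ± 0.40, adjusted p = 0.0497) from 19.8 and 18.3 CPM to 3.51 and 8.66 CPM, and in the clones (-0.74 ± 0.16, adjusted p = 0.0303, both edgeR). In the clones, where 2.89% of all genes rose and 2.38% fell, PRDX4 also fell (-0.49 ± 0.12, adjusted p = 0.0418) and GPX7 rose (1.82 ± 0.40, adjusted p = 0.0334, edgeR). Leaving out 1 library ended the PRDX3 call in 5 of 6 fits, the CHAC2 calls in 3 of 4 and 6 of 8, and the PRDX4 and GPX7 calls in 5 of 8 each.

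SLC7A11 is also induced by ATF4, the amino acid stress factor, so 16 other ATF4 targets were counted. The hypoxia gene CA9 rose in Ni_3D (log2 fold change 6.26 ± 1.0), and which factor moved the 16 genes was not tested. In Ni_3D 4 rose and 0 fell (2.83% and 1.51% of all genes), with a median log2 fold change of 1.28, beside 0.03 over all genes, and all 16 above 0, beside 51.8% of all genes. DDIT4, an mTOR inhibitor, was at 651.2 and 629.0 CPM beside 16.2 to 72.9 CPM (4.25 ± 0.74, adjusted p = 0.0164, edgeR). DDIT3 (1.38 ± 0.27, adjusted p = 0.0186), STC2 (2.08 ± 0.41, adjusted p = 0.0222) and VLDLR (1.04 ± 0.26, adjusted p = 0.041, all edgeR) were the others. SLC7A11 itself had a log2 fold change of 0.50 ± 0.76 there. Leaving out 1 library ended these calls in 4, 2, 3 and 5 of 6 fits in the order given. Of the 8 genes of the 4 lists called in Ni_3D, 1, DDIT3, kept its call without the 2 libraries that held ESR1 reads, a setting in which calls over all genes went from 647 to 75. The log2 fold changes of the other 7 were then 1.47 for SQSTM1, 1.51 for TRIM16L, 2.84 for ABCC3, -0.68 for PRDX3, 4.06 for DDIT4, 2.09 for STC2 and 0.77 for VLDLR. In the clones CEBPB (1.08 ± 0.20, adjusted p = 0.0226) and PSPH (0.87 ± 0.19, adjusted p = 0.0334, both edgeR) rose and 0 fell, beside 2.89% and 2.38% of all genes. Those calls ended in 1 and 5 of 8 fits that left out 1 library. By edgeR none of the 16 was called in Ni_3D+14D, Ni_6W or Ni_6W+2W. In that order 0, 3 and 2 had an unadjusted p under 0.05, beside 4.11%, 26.6% and 13.1% of all genes. DESeq2 called 0, 1 and 0 there, beside 0.107%, 13.9% and 2.2%. In Ni_3D 12 of the 16 had an unadjusted p under 0.05 (24.3% of all genes), and DESeq2 called 6 (12.6%). The same counts in the clones were 3 (25.2%) and 2 (13.9%).

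Members were compared with one another by the root mean square difference of their centred log2 CPM over the 20 libraries. GCLC and ME1 were the nearest pair (0.21), followed by GCLM with GCLC (0.30) and HMOX1 with SRXN1 (0.40). SLC7A11 and OSGIN1 were the farthest apart (1.34). Among 10950 genes outside the set, HMOX1 was most like PHC2 (0.30), ZNF26 (0.32) and SH2B3 (0.33), beside a spread of 0.56 in HMOX1 itself. PHC2 was at 105.3 and 256.5 CPM in Control_6W, so the high replicate 2 is part of that likeness. NQO1 was most like PTPDC1 (0.33), CDYL2 (0.34) and CCDC149 (0.34), beside a spread of 0.54, and the mean of the 9 members was most like MEX3C (0.17), KIAA0247 (0.18) and SLC41A1 (0.18), beside a spread of 0.26. These are descriptions over libraries that share groups and depth.

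The authors' deposited tables call more members at 3 days than edgeR did with all 4 controls. For Ni_3D the adjusted p in the authors' deposited table was 3.01e-06 for NQO1, 0.000103 for OSGIN1, 0.000117 for TXNRD1 and 0.0148 for ME1, with log2 ratios of 1.12, 1.90, 0.90 and -0.67. The control column of the authors' deposited table equals the mean RPKM of Control_3D replicates 3 and 4 for all 9 members, 26.7 RPKM for NQO1. With those 2 controls alone edgeR called NQO1 (adjusted p = 0.0154) in Ni_3D. It did not call OSGIN1 (adjusted p = 0.0884), TXNRD1 (adjusted p = 0.12) or ME1 (adjusted p = 0.156, all edgeR). The nickel column of the authors' deposited table falls outside what the 2 Ni_3D libraries span for 8 of the 9 members, SRXN1 being the exception, for example 322.3 RPKM for TXNRD1 beside 196.0 and 218.3 RPKM. In the authors' deposited table for Ni_3D+14D, whose nickel column lies within its libraries' range, the adjusted p was 2.43e-05 for TXNRD1, 0.000183 for NQO1, 0.00078 for GCLM, 0.0158 for GCLC and 0.0414 for ME1. The log2 ratios in the authors' deposited table were 0.70, 0.62, -0.61, -0.52 and -0.44 in that order. Its control column is also the mean of Control_3D replicates 3 and 4 for all 9 members, and with all 4 controls the fitted log2 fold change of NQO1 was 0.03 ± 0.31 (adjusted p = 0.995, edgeR).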

How the data were processed

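Each library's table, as the authors deposited it, gives raw read counts per RefSeq gene with no normalisation, and per the file headers an RPKM value made by the authors. The authors' comparison tables hold mean RPKM, a log2 ratio and p-values, used here only where named. The submitters' processing notes list STAR 2.4, DESeq, DESeq2 and the builds GRCh37 and hg19; how reads were counted, and whether by strand, is not stated there. Libraries were joined by RefSeq identifier, because 28 symbols had been changed by a spreadsheet in 2 libraries. No pair of 190 was a duplicate. The lowest chi-square per degree of freedom, 8.91, was between Ni_6W replicate 2 and Ni_6W+2W replicate 2, which are of different groups. Control_3D replicate 3 with Control_6W replicate 1 followed at 11.03. The closest pair within a group, Control_3D replicates 3 and 4, was at 11.26.

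Counts were tested with edgeR 4.0.16 in R 4.3.3 (TMM, filterByExpr with a minimum count of 10 and total of 15, robust quasi-likelihood F test). The 14 non-clone libraries shared 1 fit (coefficient of variation 29.7%), and clones were fitted with Control_6W (24.7%) or Ni_6W+2W (24.8%). p-values were adjusted by Benjamini-Hochberg over all genes tested and called under 0.05. The fit was tested on simulated data. Alternatives were no filter, RLE size factors, DESeq2 1.42.0, a replicate block, all 20 libraries together, both pairs of Control_3D, no libraries with ESR1 reads, and each library left out.

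Members and lists were chosen with earlier results of these data known. Named were all 9 members, NFE2L2, KEAP1, BACH1 and MAFF, and up to 4 called genes per list and comparison with the smallest adjusted p.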

Additional observations from a re-analysis of the deposited data

Results flagged for a closer look

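Among the 6 clones, 1 library lay apart in 2 members. NQO1 was at 311.9 CPM in Ni_clone replicate 6, beside 109.6 to 163.7 CPM in the other 5, and SLC7A11 was at 107.2 CPM in the same library, beside 19.1 to 50.6 CPM. The gap to the nearest clone was 0.733 and 0.642 of the whole range, above the 95% critical value of 0.625 of Dixon's test. Of 26 gene and group combinations tested, 2 passed, and chance gives about 5%.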

How the results depend on the processing

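Of 566 alternative values of the members, 530 kept their direction and side of the threshold, 26 came to pass it and 10 reversed. Only values with an unadjusted p under 0.2 were followed. The count of members called, 0 in every comparison, became 2 in Ni_3D by DESeq2 and with all 20 libraries in 1 fit (OSGIN1 and TXNRD1), and 1 without Control_3D replicates 1 and 2 (NQO1). In Ni_6W it was 1 (GCLM) with the replicate block, by DESeq2 and with all 20 libraries. By DESeq2 it was 2 in the clones (NQO1 higher, HMOX1 lower) and 1 in Ni_3D+14D against Ni_3D (OSGIN1). In Control_6W against Control_3D it was 1 (NQO1) with the replicate block and without Control_3D replicates 3 and 4.

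Leaving out 1 library gave 0 to 4 members in Ni_6W, 0 to 2 in the clones, and 0 to 1 in Ni_6W+2W against either Control_6W or Ni_6W, in Control_6W against Control_3D and in the 6-week minus 3-day response; the other 5 comparisons stayed at 0. In Ni_6W the calls were most numerous without its replicate 2, among members and over all genes alike. The members called there had log2 fold changes of 2.19 (OSGIN1), -0.94 (GCLC), -1.54 (GCLM) and -1.02 (ME1). Without Control_6W replicate 1 or 2, HMOX1 ran from -2.06 to 0.41 in Ni_6W, -2.21 to 0.26 in Ni_6W+2W, -2.03 to 0.43 in the clones, 2.33 to -0.13 in Control_6W against Control_3D and -2.22 to 0.25 in the difference of the responses after exposure, reversed without replicate 2 each time. So did GCLM (-0.62 to 0.02), SRXN1 (-0.79 to 0.15) and BACH1 (-0.73 to 0.23) in the clones, and TXNRD1 (1.0 to -0.12) and BACH1 (0.96 to -0.02) in Control_6W against Control_3D. OSGIN1 reversed without Ni_6W replicate 1 in Ni_6W (2.19 to -1.01) and in Ni_6W+2W against Ni_6W (-2.34 to 0.86), and KEAP1 without Ni_3D replicate 2 in Ni_3D+14D against Ni_3D (-0.68 to 0.05). The cause was not tested.

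Over all genes, edgeR called 647 in Ni_3D, 368 in Ni_6W and 746 in the clones. With 1 library left out these ran from 65 to 653, 0 to 2871 and 6 to 1504. The same 3 counts were 1880, 2070 and 1970 by DESeq2, 1684, 1812 and 464 with all 20 libraries in 1 fit, and 92, 761 and 21 with the replicate block. Against Control_3D replicates 3 and 4 alone Ni_3D had 1174 calls, against replicates 1 and 2 alone 121, and without the libraries with ESR1 reads Ni_3D had 75 and Ni_6W 0. DESeq2 called 16 in Ni_3D+14D, 328 in Ni_6W+2W, 49 in Control_6W against Control_3D and 190 in the 6-week minus 3-day response, where edgeR called 0, and 442 in Ni_3D+14D against Ni_3D, where it called 38. Same-numbered replicates did not deviate together throughout (r of -0.13 to 0.35 across genes), so the numbers were not taken as pairs.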
